A study of Mus musculus with 5 samples.

Results

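The C1q/TNF-related proteins are secreted relatives of adiponectin, each with a collagen-like stretch and a globular C1q domain, and they assemble into trimers and larger complexes. Several act as hormones on metabolism and inflammation, and C1qtnf3, also called cartducin, is known from growing cartilage, where it was linked to the proliferation of chondrocyte precursors. In the musculoskeletal system they are mostly studied as signals released by stromal, fat and cartilage cells.

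The family genes C1qtnf1, C1qtnf2, C1qtnf3, C1qtnf6 and C1qtnf7 were followed in mesenchymal cells of mouse hindlimb muscle, 5 of the 31055 genes in the count matrices. The members were selected on their measured levels in these same libraries, so their differences are given as a description and not as a test. All 5 reached 5 counts per 1000000 UMIs (CPM, with UMI standing for unique molecular identifier) in at least 1 library.

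The cells were GFP+ cells sorted from the muscle around the tibia of Prx1Cre;mTmG mice on a C57BL6/J background, in which Cre driven by the limb mesenchyme gene Prx1 switches the cells of that lineage and their descendants from Tomato to GFP. Single-cell RNA sequencing (scRNAseq) libraries came from uninjured muscle (d0), from d3 and d5 after non-stabilized tibial fracture, and from d3 and d5 after polytrauma, in which the fracture was combined with mechanical injury of the adjacent muscles. The mice were adults, all carried the same genotype, and the study's methods give an age range and both sexes without assigning them to libraries. Those methods also describe the experimental groups as homogeneous in sex and age, while sex-linked transcripts differed between libraries, as given below. Each condition had 1 library, pooled from 2 mice, so no difference between mice or libraries was measured, no p-value is given, and every interval below covers counting error only.

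The conditions of a pair of libraries followed the cell numbers of the study and not the deposited labels. The library deposited as d5 post-fracture was used as d3 polytrauma, and the library deposited as d3 post-polytrauma was used as d5 fracture. Summed levels of C1qtnf3, some ratios and the counts of members are given both ways. Unless stated, levels of other genes, shares of cells, clusters and comparisons of cells within a library are given under the conditions used here. As deposited, their values of d3 polytrauma and d5 fracture change places. After filtering, 4632 (d0), 5589 (d3 fracture), 6201 (d3 polytrauma), 1468 (d5 fracture) and 11941 (d5 polytrauma) cells were retained, with median depths from 3640 UMIs per cell at d0 to 34949 at d5 fracture. The d5 libraries shared 944 cell barcodes with each other and at most 3 with any other library. By contrast, the d0 and d3 libraries shared 405 to 525 in each pair, so library preparation and day cannot be told apart. As deposited, the 944 barcodes would be shared by the polytrauma libraries, and library preparation and polytrauma could not be told apart. Cells on a barcode found in another library, with under 10 times the UMIs of that barcode there, were 0.749% to 2.83% of retained cells, and the counts of members past 2-fold were the same without them. The d5 polytrauma library carried Y-linked transcripts (115 CPM over 4 genes) and almost no Xist (1.15 CPM), while the other libraries carried Xist at 411 to 1040 CPM and Y-linked genes at 0.135 CPM or less. The sex of the mice and the d5 polytrauma condition therefore cannot be told apart. Cells with at least 2 of 7 hematopoietic markers were 0.194% to 3.68% of each library, and without these cells C1qtnf2 moved from a log2 ratio of -1.04 to -0.98 in d5 polytrauma against d5 fracture, which left 3 members in place of 4 at least 2-fold lower there and no other count different.

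C1qtnf3 lies on mouse chromosome 15 (GRCm38, GENCODE M21) at 10952332 to 10980150 on the plus strand, and Amacr, on the same strand, begins 1605 bases after its end. C1qtnf6 is on chromosome 15 as well (78523346 to 78531416, minus strand), C1qtnf1 (118428203 to 118449963) and C1qtnf2 (43474276 to 43491525) are on chromosome 11, and C1qtnf7 (43515538 to 43618803) is on chromosome 5, these last 3 on the plus strand. C1qtnf1, C1qtnf6 and C1qtnf7 have annotated antisense neighbours within their bounds. C1qtnf7 is also overlapped by Gm43022 and Gm43023, which are annotated on its own strand. Whether reads were counted by strand is not given in the sources used here. The antisense gene at C1qtnf1, Gm11747, was at 2.58 CPM at d0 and at most 0.578 CPM elsewhere, and Amacr was between 5.68 CPM at d0 and 24.1 CPM at d5 fracture. The part of neighbouring or overlapping genes in the levels of the members was not tested.

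The 250 bases before the start of C1qtnf3 are shown because this gene spans by far the widest range of the 5. RefSeq promoters (GRCm38.p6) were found for 4 of the 5 members. The window lies at chr15:10952082-10952331 on the plus strand and is printed 5′ to 3′, with a match to the TATA box letters TATAAA in capitals.
C1qtnf3: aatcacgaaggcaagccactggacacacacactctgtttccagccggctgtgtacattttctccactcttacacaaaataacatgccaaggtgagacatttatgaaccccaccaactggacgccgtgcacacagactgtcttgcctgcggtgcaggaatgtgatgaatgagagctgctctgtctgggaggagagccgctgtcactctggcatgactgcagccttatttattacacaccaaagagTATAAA
The match begins 6 bases before the annotated start. Searched on both strands, TATAAA was present in 12.4% of the 32851 promoter windows of the same length. The AP-1 letters TGANTCA, present in 6.75% of all windows, matched once in the window of C1qtnf6, 169 bases before the RefSeq start, which lies inside the GENCODE bounds of the gene given above. The SOX letters ACAAAG or ACAATG, present in 25.2% of windows, matched in none of the 4 members. These matches are letters in a window and were not linked to any measurement here.

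C1qtnf3 was at 6.94 CPM at d0, 107 CPM at d3 fracture, 952 CPM at d5 fracture, 12.8 CPM at d3 polytrauma and 206 CPM at d5 polytrauma. The exact Poisson 95% intervals of the 5 values do not overlap, and the order from high to low was d5 fracture, d5 polytrauma, d3 fracture, d3 polytrauma and d0. The highest level was 137-fold the lowest. With 1 CPM added to every level, 20 of the 9388 genes with a mean of at least 5 CPM (0.213%), C1qtnf3 among them, had a range at least as wide. These levels rest on 121 UMIs at d0, 10717 at d3 fracture, 49366 at d5 fracture, 1326 at d3 polytrauma and 41658 at d5 polytrauma. With the conditions as deposited, 952 CPM would be the level of d3 polytrauma and 12.8 CPM that of d5 fracture.

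C1qtnf6, whose protein is known to inhibit the alternative complement pathway, was the member with the narrowest range, 3.48-fold. It was at 73.7 CPM at d0, 227 CPM at d3 fracture, 239 CPM at d5 fracture, 139 CPM at d3 polytrauma and 257 CPM at d5 polytrauma. All 4 injured libraries were above d0, and no neighbouring intervals in this order overlap.

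C1qtnf1, C1qtnf2 and C1qtnf7 were each highest in uninjured muscle. C1qtnf1, whose protein is a vascular and metabolic factor that restrains platelet aggregation on collagen, was at 32.4 CPM at d0, 12.1 CPM at d3 fracture, 30.7 CPM at d5 fracture, 5.75 CPM at d3 polytrauma and 10.6 CPM at d5 polytrauma. Its d0 and d5 fracture intervals (29.8 to 35.2 and 29.2 to 32.3 CPM) overlap. C1qtnf2, a metabolic relative of adiponectin, was at 83.8 CPM at d0, 24.2 CPM at d3 fracture, 40.2 CPM at d5 fracture, 19.1 CPM at d3 polytrauma and 19.5 CPM at d5 polytrauma, and the last 2 values do not differ beyond counting error. In such sums fewer cells that make a gene and less RNA of it per cell cannot be told apart. C1qtnf7, also a metabolic relative, was the sparsest, at 14.8 CPM at d0, 1.74 CPM at d3 fracture, 9.04 CPM at d5 fracture, 2.40 CPM at d3 polytrauma and 1.95 CPM at d5 polytrauma. The interval of d5 polytrauma overlaps those of both d3 libraries.

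**Figure D1:**
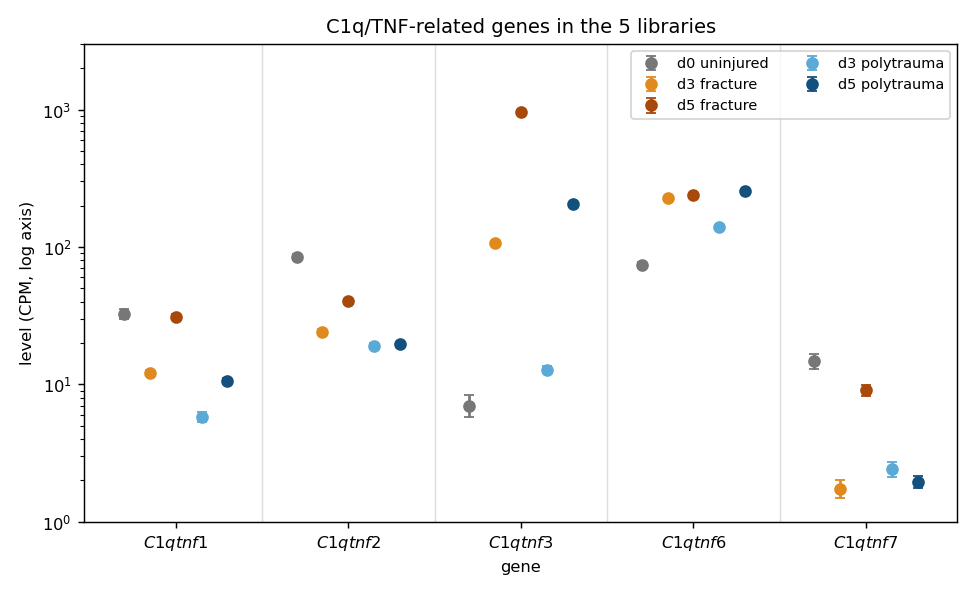
Level of each gene in each of the 5 libraries, in CPM on a log axis; points are summed UMIs of retained cells and bars are exact Poisson 95% intervals. C1qtnf3 spans from 6.94 CPM at d0 to 952 CPM at d5 fracture, whereas C1qtnf6 stays between 73.7 and 257 CPM.

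The first comparison asked which members differed between injured and uninjured muscle at d3. In d3 fracture against d0, C1qtnf3 was 15.5-fold higher (12.9 to 18.6) and C1qtnf6 3.08-fold higher (2.91 to 3.26). C1qtnf7 was 8.50-fold, C1qtnf2 3.47-fold and C1qtnf1 2.68-fold lower. Thus 2 of 5 members were at least 2-fold higher, where 11.5% of all genes were, and 3 of 5 at least 2-fold lower, where 27.4% of all genes were. On the log2 scale the genes compared had a median of -0.32 and the members one of -1.42, and C1qtnf3 stood at 3.95. Size factors (median of ratios) moved every log2 ratio of this comparison by 0.58, which took C1qtnf1 to -0.84 and left 2 members at least 2-fold lower. The rule used these values, so the shares are set side by side and nothing is read from them.

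In d3 polytrauma against d0, C1qtnf3 was 1.85-fold higher (1.53 to 2.25) and C1qtnf6 1.89-fold higher (1.79 to 2.00), both short of 2-fold. C1qtnf7 was 6.16-fold, C1qtnf1 5.63-fold and C1qtnf2 4.40-fold lower. No member was at least 2-fold higher, where 10.8% of all genes were, and 3 of 5 were at least 2-fold lower, where 26.9% of all genes were. Size factors moved every log2 ratio of this comparison by 0.53, and C1qtnf3 and C1qtnf6 then passed 2-fold. With the conditions as deposited, 2 members were at least 2-fold higher and 1 was lower. Both comparisons share the d0 library.

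Between d3 and d5 of fracture, C1qtnf3 was 8.88-fold higher at d5 (8.69 to 9.06), C1qtnf7 5.19-fold (4.36 to 6.22), C1qtnf1 2.54-fold and C1qtnf2 1.66-fold. C1qtnf6 differed little, at 1.05-fold. So 3 of 5 members were at least 2-fold higher, where 33.4% of all genes were, and none was lower, where 4.15% were. The genes compared had a median log2 ratio of 0.55, and C1qtnf3 stood at 3.15. With size factors every log2 ratio moved by -0.74. C1qtnf3 was then at 2.41, C1qtnf7 at 1.64 but with a mean under the minimum level, C1qtnf1 at 0.61, C1qtnf2 at -0.00 and C1qtnf6 at -0.66, which left 1 member past 2-fold. With the conditions as deposited no member was at least 2-fold higher and 2 were lower, C1qtnf3 by 3.06 on the log2 scale.

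Between d3 and d5 of polytrauma, C1qtnf3 was 16-fold higher at d5 (15.2 to 17.0). C1qtnf1 was 1.85-fold and C1qtnf6 1.84-fold higher, and C1qtnf2 was at 1.03-fold with an interval that holds 1 (0.971 to 1.08). C1qtnf7 was 1.23-fold lower and, with a mean under 5 CPM, did not enter the count. Thus 1 of 4 members was at least 2-fold higher, where 24.9% of all genes were, and none was lower, where 3.24% were. Size factors moved these log2 ratios by -0.49, so that C1qtnf2 turned from 0.04 to -0.45. With the conditions as deposited the log2 ratio of C1qtnf3 was -2.21 and 4 members were at least 2-fold lower.

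The last comparisons set polytrauma against fracture on the same day. At d3, C1qtnf3 was 8.35-fold and C1qtnf1 2.10-fold lower in polytrauma, C1qtnf6 was 1.63-fold and C1qtnf2 1.27-fold lower, and C1qtnf7 was 1.38-fold higher (1.13 to 1.68) at a mean under 5 CPM. So 2 of 4 members were at least 2-fold lower, where 1.13% of all genes were, and none was higher, where 1.59% were. At d5, C1qtnf7 was 4.63-fold, C1qtnf3 4.62-fold, C1qtnf1 2.89-fold and C1qtnf2 2.06-fold lower in polytrauma, and C1qtnf6 was 1.07-fold higher. That made 4 of 5 members at least 2-fold lower, where 6.59% of all genes were, and none higher, where 1.17% were. The medians over all genes were near 0 in both comparisons (-0.03 and -0.02 on the log2 scale). With size factors 2 members, C1qtnf1 and C1qtnf3, were at least 2-fold lower at d5, and C1qtnf7 was at a log2 ratio of -2.01 with a mean under the minimum level. With the conditions as deposited the d3 and d5 log2 ratios of C1qtnf3 were 3.15 and 4.00, and no member was at least 2-fold lower on either day.

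**Figure D2:**
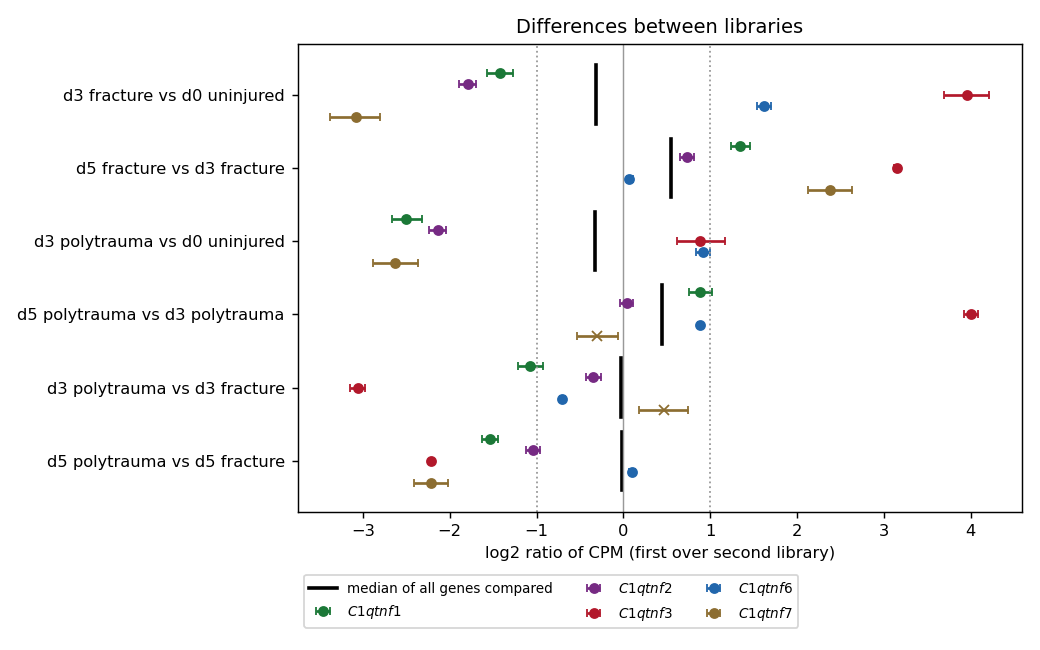
Log2 ratio of CPM of each gene in the 6 comparisons, first library over second, with 95% counting intervals; black lines mark the median of all genes compared, dotted lines mark 2-fold, and a cross marks a gene whose mean was under 5 CPM. C1qtnf3 lies to the right of the other members in the 4 comparisons with an earlier library except d3 polytrauma against d0, where C1qtnf6 (1.89-fold) lies beside it (1.85-fold).

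Shares of cells with at least 1 UMI were computed after thinning each cell to 2000 UMIs. C1qtnf3 was detected in 0.977% of cells at d0, 15.5% at d3 fracture, 49.0% at d5 fracture, 2.27% at d3 polytrauma and 25.8% at d5 polytrauma. Without thinning the shares were 1.79%, 46.9%, 83.7%, 7.95% and 57.2%. The order of the libraries is that of the CPM. Hematopoietic-like cells, which should lack the gene, held it in 0 of 86 thinned cells of d3 polytrauma (exact upper limit 4.20%), 1 of 22 of d3 fracture (4.55%, 0.115% to 22.8%), 1 of 3 of d5 fracture and 0 of 22 of d5 polytrauma (upper limit 15.4%). Their summed level was 0 CPM in d3 polytrauma but 60.5 CPM in d3 fracture and 66.5 CPM in d5 polytrauma, from 11 and 19 UMIs. The median depth of this cluster was 3950 UMIs before thinning. The d3 polytrauma share over all cells lies below the upper limit of this background, and the d3 fracture share lies within its interval.

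C1qtnf6 was detected in 12% of thinned cells at d0, 36.7% at d3 fracture, 35.5% at d5 fracture, 24.1% at d3 polytrauma and 40.7% at d5 polytrauma, beside 5.81% of 86 hematopoietic-like cells of d3 polytrauma and 27.3% of 22 of d3 fracture (10.7% to 50.2%), an interval that holds the share over all cells of d3 fracture. The d3 and d5 fracture shares overlap in their intervals and are not ordered here. C1qtnf2 was found in 14.4% of thinned cells at d0 and in 4.09% to 8.83% after injury, C1qtnf1 in 5.89% at d0 and 1.10% to 6.68% after injury, and C1qtnf7 in 2.91% at d0 and 0.538% to 1.74% after injury. Without thinning, C1qtnf2 was in 22.6% at d0 and 22.5% to 50.1% after injury. C1qtnf1 was then in 10.5% and 8.66% to 58.2%, and C1qtnf7 in 4.53% and 2.81% to 15.7%. The order of d0 and the injured libraries for these genes thus depends on depth. CPM and thinned shares are relative to all UMIs.

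C1qtnf3 also reached the highest counts per cell. At d5 fracture 149 of 1438 thinned cells (10.4%) held 5 or more C1qtnf3 UMIs, with up to 19 in 1 cell, and at d5 polytrauma 166 of 11517 (1.44%) did. In d3 fracture 11 cells did, in d3 polytrauma 3, and at d0 none. C1qtnf6 reached 5 or more UMIs in at most 0.130% of the thinned cells of any library. The 10% of cells with most C1qtnf3 UMIs held 56.7% of them at d3 fracture, 55.0% at d5 fracture and 55.1% at d5 polytrauma. For C1qtnf6 these shares were lower, at 25.5%, 26.7% and 26.2%. In the same order C1qtnf1 was at 63.2%, 36.1% and 71.0%, C1qtnf2 at 59.7%, 48.9% and 56.6%, and C1qtnf7 at 100%, 82.1% and 100%. Of these last members, only C1qtnf1 and C1qtnf2 at d5 fracture were below C1qtnf3. A gene found in under 10% of cells is at 100% by definition, so the measure depends on how sparse a gene is. After thinning, the shares were 74.9%, 48.8% and 65.6% for C1qtnf3 and 44.8%, 44.5% and 42.0% for C1qtnf6. The other members were then at 100%. The distance between C1qtnf3 and C1qtnf6 at d5 fracture was much smaller after thinning.

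The cells of all libraries were grouped into 18 clusters without using the 5 genes, the lists of related genes or the marker lists. Clusters were named from markers, with FAP/MP standing for fibro-adipogenic and mesenchymal progenitors, and most of them held mainly cells of 1 library, so cluster and library overlap. Sums of at least 50 cells of 1 cluster in 1 library numbered 31. The markers gave FAP/MP, tenocyte, pericyte, fibroblast and chondrocyte names, which are mesenchymal as labelled, and a hematopoietic-like cluster of 169 cells. The fibroblast name was set aside wherever another type also had at least 3 markers. The FAP/MP-like clusters 8 and 9 had all 5 fibroblast markers, beside 3 and 4 of 5 FAP/MP markers. Their name therefore does not separate progenitors from fibroblasts. The tenocyte-like cluster 11 also had all 5 fibroblast markers, beside 3 of 5 tenocyte and 3 of 5 FAP/MP markers. Its name does not separate these types either.

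C1qtnf3 was highest in the chondrocyte-like cluster, led by Col2a1, the main cartilage collagen. It reached 2816 CPM (2781 to 2851) there at d5 fracture and 1787 CPM (1733 to 1842) at d5 polytrauma, with 95.2% and 88.3% of thinned cells holding it. These cells were 13.4% of the d5 fracture library and held 51.0% of its C1qtnf3 UMIs, against 1.68% of cells and 9.88% of UMIs at d5 polytrauma. The gene was measured outside them too. At d5 fracture the FAP/MP-like cluster 9 was at 507 CPM, the fibroblast-like cluster 15, led by division genes, at 696 CPM and the fibroblast-like cluster 17, led by Ank, Enpp1 and Tnn, at 925 CPM.

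In the earlier libraries other clusters led. At d0 the tenocyte-like cluster 4, which was 9.28% of cells, was at 37.5 CPM (29.7 to 46.7) and held 65.3% of the C1qtnf3 UMIs, while the pericyte-like cluster 2 was at 0.312 CPM from 1 UMI. In d3 fracture the tenocyte-like cluster 13 was highest at 194 CPM (175 to 215), followed by the FAP/MP-like cluster 8 at 162 CPM and the unnamed cluster 6 at 92.3 CPM. That unnamed cluster held 56.4% of the cells of d3 fracture and 58.2% of its C1qtnf3 UMIs, so these shares are alike. The pericyte-like cluster 7 was lowest there, with 5.59 CPM from 3 UMIs. In d3 polytrauma the FAP/MP-like cluster 8 was highest at 64.5 CPM (57.3 to 72.5), the unnamed cluster 6, with 9.26% of the cells, held 44.7% of the C1qtnf3 UMIs at 53.0 CPM (48.8 to 57.5, an overlap with cluster 8), and the FAP/MP-like cluster 14, with 39.9% of the cells, was at 1.69 CPM.

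At d5 fracture and d5 polytrauma the other members ranked first in other clusters than C1qtnf3. In d3 polytrauma all 5 members ranked first in the FAP/MP-like cluster 8. At d0 C1qtnf2 (111 CPM) and C1qtnf6 ranked first in the tenocyte-like cluster 4, as C1qtnf3 did. C1qtnf6 also shared the tenocyte-like cluster 13 with C1qtnf3 at d3 fracture. C1qtnf6 was highest in tenocyte-like cells at d0 (186 CPM). They also ranked first at d3 fracture (349 CPM, 323 to 376) and d5 polytrauma (336 CPM, 326 to 347), with intervals that overlap those of the pericyte-like cluster 7 (324 CPM) and the FAP/MP-like cluster 9 (330 CPM). In d3 polytrauma C1qtnf6 was at 170 CPM in the tenocyte-like cluster 13, below the FAP/MP-like cluster 8 at 233 CPM (219 to 247). However, in the chondrocyte-like cluster it was lowest of the sums at d5 fracture (90.1 CPM) and at d5 polytrauma (108 CPM), where its interval overlaps that of the unnamed cluster 10 (123 CPM). C1qtnf2 was likewise lowest in the chondrocyte-like cluster at d5 fracture (5.37 CPM) and d5 polytrauma (3.91 CPM from 9 UMIs, with an interval that overlaps that of cluster 17), and its d5 fracture UMIs lay to 88.5% in the FAP/MP-like cluster 9. C1qtnf7 had 91.0% of its d5 fracture UMIs in the same cluster, at 13.6 CPM against 0.336 CPM in chondrocyte-like cells. C1qtnf1 was highest in pericyte-like cells at d0 (60.5 CPM, 52.3 to 69.7). Pericyte-like cells also ranked first at d3 fracture (58.9 CPM, 33.0 to 97.2) and d5 polytrauma (24.3 CPM, 15.7 to 35.8), but these intervals overlap those of the next clusters.

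**Figure D3:**
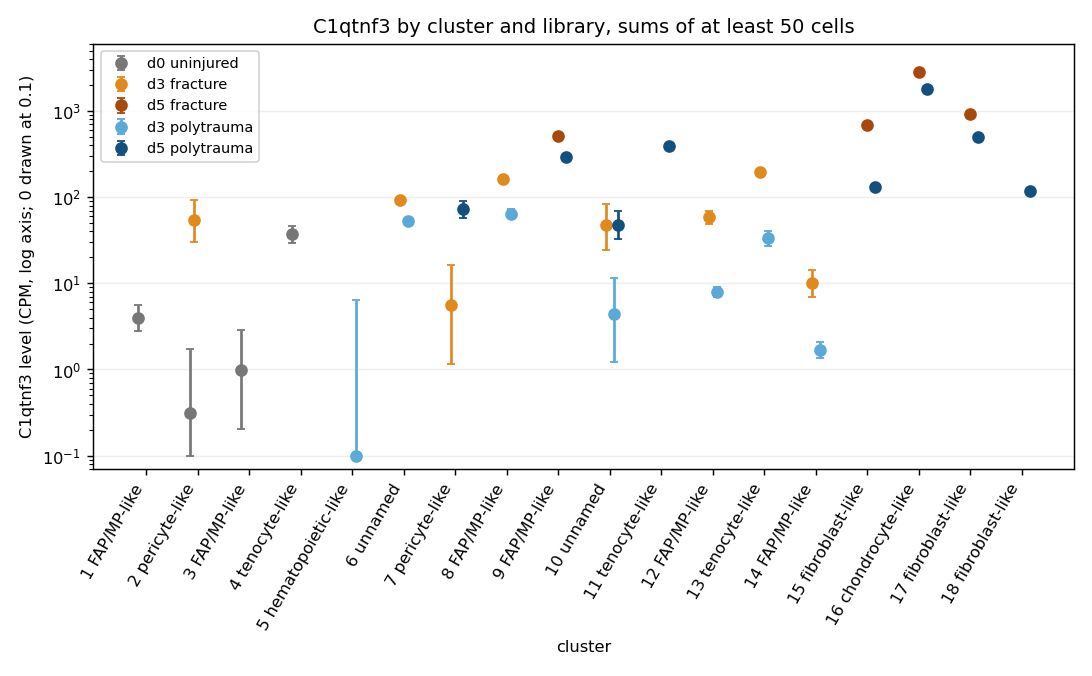
C1qtnf3 level in each of the 31 sums of at least 50 cells of 1 cluster in 1 library, in CPM on a log axis with exact Poisson 95% intervals; colours mark libraries and a level of 0 is drawn at 0.1. The chondrocyte-like cluster 16 is highest, at 2816 CPM at d5 fracture and 1787 CPM at d5 polytrauma, and the hematopoietic-like cluster of d3 polytrauma is at 0.

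Polytrauma and fracture were also compared inside clusters, a choice made after the levels by cluster had been seen. C1qtnf3 was lower in polytrauma in 6 of 6 clusters at d3, from 1.74-fold in the unnamed cluster 6 to 10.7-fold in cluster 10, where the polytrauma value rests on 4 UMIs. At d5 it was lower in 4 of 4 clusters with at least 50 cells in both libraries: 1.58-fold in chondrocyte-like cells (1.52 to 1.63), 1.76-fold in cluster 9, 1.83-fold in cluster 17 and 5.36-fold in the dividing cluster 15. Clusters 18 and 11 held 3647 and 1427 cells of d5 polytrauma but 15 and 27 of d5 fracture, and were not compared. The leading genes of cluster 18 included the Y-linked Ddx3y, Eif2s3y and Uty. Without the chondrocyte-like cluster the d5 levels were 188 CPM in polytrauma and 564 CPM in fracture, a 3.00-fold difference in place of 4.62-fold. C1qtnf6 was lower in polytrauma in 6 of 6 clusters at d3 and higher in 3 of 4 at d5, yet without the chondrocyte-like cluster its d5 level was 259 CPM against 270 CPM, the reverse of the order over all cells. C1qtnf2 differed beyond counting error in 1 of 4 clusters at d5, C1qtnf7 in 1 of 4 and C1qtnf1 in 2 of 4. As deposited, no cluster held 50 cells of both d3 libraries, and at d5 cluster 10 alone did, with C1qtnf3 at 48.1 CPM in polytrauma and 4.44 CPM in fracture. The part of library preparation, depth or sex in these differences was not tested.

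**Figure D4:**
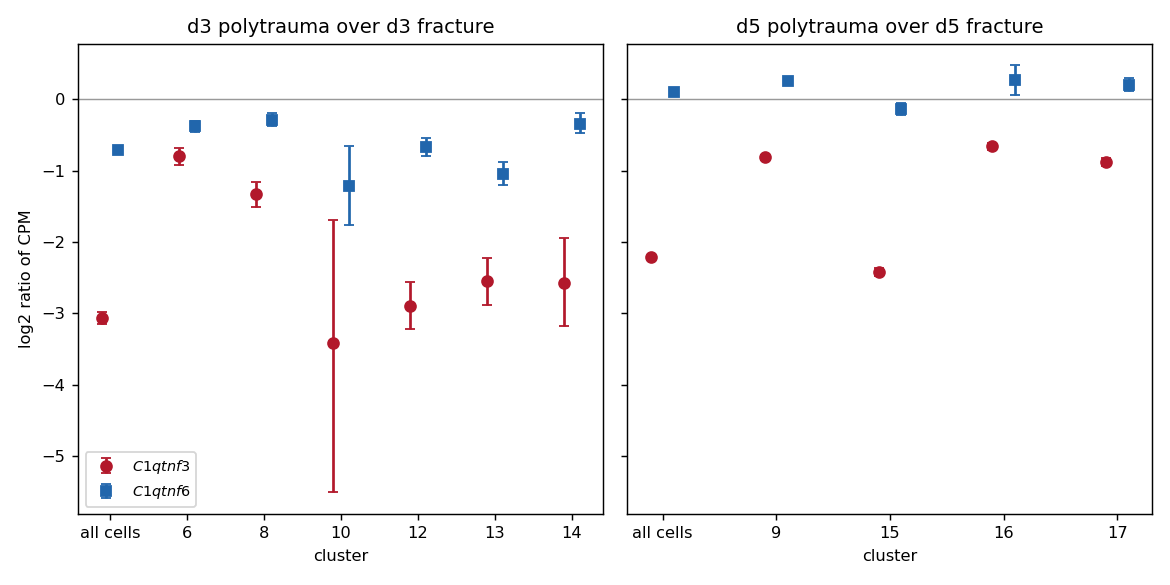
Log2 ratio of CPM, polytrauma over fracture, for C1qtnf3 (circles) and C1qtnf6 (squares) over all cells and inside each cluster with at least 50 cells in both libraries, at d3 (left) and d5 (right), with 95% counting intervals. C1qtnf3 lies below 0 in 6 of 6 clusters at d3 and 4 of 4 at d5, and C1qtnf6 lies above 0 in 3 of 4 at d5.

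Within each library, thinned cells with and without a C1qtnf3 UMI were compared for 7 gene lists. In the cells with C1qtnf3 the chondrogenic list (Sox9, Col2a1, Acan, Fgfr3) had 6.68 times the UMIs per cell at d5 fracture (6.20 to 7.21) and 3.77 times at d5 polytrauma (3.59 to 3.96). At d5 fracture Col2a1 was at 4.28 UMIs per cell with C1qtnf3 and 0.269 without, and Acan, the cartilage proteoglycan aggrecan, at 1.90 and 0.315. The tendon list (Scx, Tnmd, Kera, Mkx, Fmod) was higher in cells with C1qtnf3 in all 5 libraries, from 1.89 times at d3 fracture to 7.34 times at d0, although its members Kera and Mkx were at 0.784 and 0.340 times at d3 fracture. At d0 this rests on 38 cells with C1qtnf3, in which Fmod, a tendon proteoglycan, was at 17.0 UMIs per cell against 2.12.

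The mural list (Rgs5, Cspg4, Des, Mylk, Notch3) was lower in cells with C1qtnf3 in all 5 libraries, between 0.183 and 0.570 times. Its member Cspg4 was the exception, at 1.95 times at d5 fracture, 5.55 times at d3 polytrauma (8 UMIs with C1qtnf3) and 1.21 times at d5 polytrauma. The mesenchymal list (Cd34, Ly6a, Prrx1, Pdgfra, Cxcl12) was lower in all 5, down to 0.330 times at d5 fracture, with Prrx1 at 1.26 times at d0. At d5 fracture the progenitor surface gene Ly6a was at 0.409 UMIs per cell with C1qtnf3 and 2.00 without. The fibrogenic list (Aspn, Postn, Col1a1, Col3a1, Col5a1, Sparc) was 3.40 times higher at d0, 1.24 times at d3 fracture and 0.985 times at d5 fracture (0.975 to 0.995), and 1.72 times at d3 polytrauma and 1.33 times at d5 polytrauma (1.32 to 1.34). At d5 fracture Col3a1 alone was lower (0.704 times), beside Aspn (1.45), Postn (1.27), Col5a1 (1.10), Col1a1 (1.09) and Sparc (1.02). At d0 Col5a1 was at 0.648 times. The contractile list was below 1 in 4 libraries and at 1.48 times at d3 polytrauma. The division list was 3.06 times higher in cells with C1qtnf3 at d5 fracture. It was below 1 at d3 fracture (0.813 times, 0.735 to 0.897), d3 polytrauma (0.763 times, 0.575 to 0.993) and d5 polytrauma (0.820 times). Median depth before thinning was 38850 UMIs with and 31900 without C1qtnf3 at d5 fracture, and 14552 and 16792 at d5 polytrauma, and the part of depth was not tested.

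**Figure D5:**
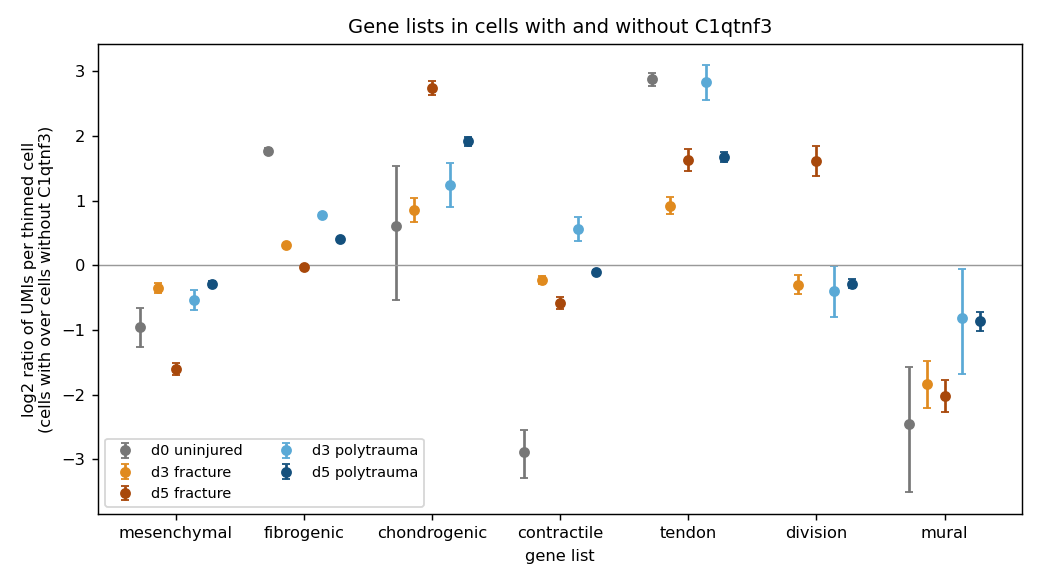
Log2 ratio of UMIs per thinned cell of 7 gene lists, cells with over cells without C1qtnf3, in each library, with 95% counting intervals; the division list has no point at d0, where no UMI was found in cells with C1qtnf3. The chondrogenic list at d5 fracture (6.68 times) and the tendon list in all 5 libraries lie above 0, and the mural and mesenchymal lists lie below 0.

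Cells with C1qtnf6, like those with C1qtnf3, had more tendon UMIs at d0, but fewer chondrogenic UMIs at d5 fracture. At d0 they had 3.46 times the tendon UMIs and 2.15 times the fibrogenic UMIs of cells without it. At d5 fracture their chondrogenic UMIs were 0.486 times those of cells without C1qtnf6 (0.456 to 0.518). The chondrogenic list was also lower at d5 fracture in cells with C1qtnf2 (0.504 times), C1qtnf1 (0.625 times) and C1qtnf7 (0.144 times, from 25 cells). The mural list was higher there in cells with C1qtnf1 (3.19 times), C1qtnf7 (2.69 times) and C1qtnf2 (2.00 times). With C1qtnf1 it was higher in the other libraries too, from 1.71 to 3.23 times. With C1qtnf2, however, it was at 0.469 times at d0, 0.712 at d3 fracture and 0.493 at d3 polytrauma, against 1.38 at d5 polytrauma. With C1qtnf7 it was at 0.679 times at d3 polytrauma (0.220 to 1.59) and above 1 elsewhere.

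Detection of the other members was then compared between cells with and without C1qtnf3. C1qtnf6 was found in 45.3% of thinned cells with C1qtnf3 at d5 polytrauma (43.5 to 47.2) and in 39.1% of cells without it (38.0 to 40.1). At d3 polytrauma it was in 36.0% (28.0 to 44.5) and 23.9% (22.8 to 25.0). The shares were 40.5% and 36.0% at d3 fracture and 23.7% and 11.8% at d0, with overlapping intervals in each. At d5 fracture they were alike, 35.6% and 35.3%. C1qtnf2 was found in 5.96% of d5 fracture cells with C1qtnf3 (4.33 to 7.97) and in 11.6% without (9.37 to 14.1), whereas the order was the opposite at d3 fracture, 7.80% with (6.07 to 9.84) and 5.10% without (4.48 to 5.78). In d0, d3 polytrauma and d5 polytrauma it was also found more often with C1qtnf3 (21.1%, 7.91% and 4.86%) than without (14.3%, 4.00% and 4.26%), with overlapping intervals in each. C1qtnf7 was found in 0.567% of d5 fracture cells with C1qtnf3 and 2.86% without, and its intervals with and without overlap in the other 4 libraries. C1qtnf1 was found in 3.37% of d5 polytrauma cells with C1qtnf3 (2.75 to 4.09) and 1.98% without (1.69 to 2.29). Its intervals overlap in the other 4 libraries.

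Over the 31 sums, the genes most like C1qtnf3 by Pearson correlation of log2(CPM + 1), among 7387 genes with a mean of at least 10 CPM, were Col12a1 (0.92), Acan (0.92), Tnn (0.91), Cog6 (0.89), Adpgk (0.89), Col11a1 (0.88), Snx7 (0.88) and Plod2 (0.88). Col12a1 and Col11a1 encode matrix collagens, Tnn is tenascin-W and Plod2 a collagen lysyl hydroxylase. Acan was at 4.01 CPM at d0, 30.8 CPM at d3 fracture, 681 CPM at d5 fracture, 4.85 CPM at d3 polytrauma and 81.4 CPM at d5 polytrauma. Tnn was at 5.28, 87.0, 427, 14.2 and 204 CPM in the same order. The sums share 5 libraries and their depths, so these values describe likeness only.

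The leading gene for C1qtnf6 was Mmp23 (0.92), for C1qtnf2 Serping1 (0.92), which encodes the C1 inhibitor, and for C1qtnf7 C1s1 (0.91), a protease of the classical complement pathway. C1qtnf2 was followed by C1ra (0.90), another such protease, and by Eln (0.88), which encodes elastin. C1qtnf1 was most like Arrdc3 (0.85). Among the members the correlation was 0.71 for C1qtnf2 with C1qtnf7, 0.68 for C1qtnf1 with C1qtnf7, 0.55 for C1qtnf3 with C1qtnf6 and -0.25 for C1qtnf2 with C1qtnf3.

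Of 9 other C1q/TNF-related genes, 2 reached 5 CPM in any library. C1qtnf12, known as adipolin, was at 17.0 CPM at d0, 50.3 CPM at d3 fracture, 35.6 CPM at d5 fracture, 62.1 CPM at d3 polytrauma and 43.1 CPM at d5 polytrauma, so both d3 libraries were above both d5 libraries, unlike C1qtnf3. As deposited this order would not hold, with 35.6 CPM at d3 polytrauma and 62.1 CPM at d5 fracture. C1qtnf4 was at 7.44 CPM at d5 fracture, 4.14 CPM at d5 polytrauma and at most 0.668 CPM elsewhere. Of 17 other genes with a C1q domain, 5 reached 5 CPM. Emilin1, an elastic fibre protein, was at 44.3 CPM at d0 and 138 to 299 CPM after injury. Emilin2 and Caprin2 went the other way, from 74.6 CPM at d0 to 29.6 to 45.4 CPM and from 10.6 CPM to 3.47 to 6.54 CPM. Col8a1 was at 131 CPM at d0 and 106 to 294 CPM after injury. Col8a2, a short-chain collagen, was at 26.2 CPM at d0, 12 CPM at d3 fracture, 75.8 CPM at d5 fracture, 3.02 CPM at d3 polytrauma and 19.2 CPM at d5 polytrauma. It was 2-fold lower or more in polytrauma in both same-day comparisons, and no other of the 4 (d3) or 5 (d5) genes of this list with a mean of at least 5 CPM was. As deposited, Col8a2 would be at least 2-fold higher in polytrauma on both days, and Col8a1 at d5. Below a mean of 5 CPM, Col10a1, the collagen of hypertrophic cartilage, was at 2.08 CPM at d5 fracture and 0.796 CPM at d5 polytrauma.

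Of 5 receptors and binding partners of adiponectin and its relatives, 4 reached 5 CPM. The adiponectin receptor Adipor1 was at 39.1 CPM at d0 and 60.4 to 82.6 CPM after injury, and Adipor2 was at 11.8 to 32.4 CPM over the 5 libraries. Cdh13, T-cadherin, was at 22.3 CPM at d0 and 1.52 to 4.74 CPM after injury. None of the 3 receptor genes tested in the same-day comparisons was past 2-fold between polytrauma and fracture, and adiponectin itself was at 1.72 CPM or less. Cdh13, with a mean under 5 CPM, was not among those tested, at 4.74 CPM at d5 fracture and 1.77 CPM at d5 polytrauma. As deposited, Adipor2 would be at least 2-fold higher in polytrauma on both days, and the binding partner Appl1 at d5.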

How the data were processed

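The authors sorted GFP+ cells, made droplet libraries (Chromium 3′ kit, named as v.2 in the labels), and aligned reads to mm10 with Cell Ranger, 3.1.0 in the matrix headers. They deposited raw UMI counts per gene and barcode, without normalization. The submitters' processing notes also name Seurat 3.1.2. Here, barcodes with 350 to 8000 genes, under 20% mitochondrial UMIs and at least 1000 UMIs were retained, 29831 cells in all. The total per library was 17437190 (d0) to 202233564 (d5 polytrauma) UMIs, so levels at d0 are the least precise.

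UMIs were summed per library and scaled to counts per 1000000 (CPM), with exact Poisson 95% intervals, conditional binomial intervals for ratios, and Clopper-Pearson intervals for shares. Genes with a mean of at least 5 CPM over the 2 libraries entered each count, and called means past 2-fold. Clusters used scanpy 1.11.5 (2000 variable genes, 20 components, resolution 0.5). Doublets were kept in the main values and the highest doublet scores left out as an alternative. Other alternatives were size factors, UMI minimums, other thresholds, conditions as deposited, and leaving out shared barcodes or cells with hematopoietic markers. The comparisons inside clusters and the alternative on Xist were added after seeing the data. Python was 3.11.15. The members, gene lists and rules were chosen with earlier results of these data known. Named genes were the 5 members, related genes with at least 5 CPM in any library, and the 8 or 5 genes most like each member, of which the first ones are given for members other than C1qtnf3.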

Additional observations from a re-analysis of the deposited data

Results flagged for a closer look

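C1qtnf6 and C1qtnf7 differed in opposite directions in parallel comparisons, each with 1 library per condition, so the difference between the comparisons was not tested. C1qtnf6 was lower in polytrauma than in fracture at d3 (log2 ratio -0.70) and slightly higher at d5 (0.10). C1qtnf7 was higher at d5 than at d3 in fracture (2.38) but lower in polytrauma (-0.30). It was also higher in polytrauma than in fracture at d3 (0.46) and lower at d5 (-2.21). The values of -0.30 and 0.46 both rest on means under 5 CPM. For the first, the CPM intervals of d3 and d5 polytrauma overlap (2.11 to 2.72 and 1.77 to 2.16). The second was -0.08 when each cell had equal weight.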

How the results depend on the processing

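The assignment of the exchanged pair of libraries moved the results most. With the conditions as deposited, the members at least 2-fold higher numbered 0 (d5 against d3 fracture), 2 (d3 polytrauma against d0), 0 (d5 against d3 polytrauma), 3 (d3 polytrauma against fracture) and 1 (d5 polytrauma against fracture), and those at least 2-fold lower 2, 1, 4, 0 and 0. Log2 ratios turned to -1.07 (C1qtnf1) and -3.06 (C1qtnf3) for d5 against d3 fracture, -2.21 (C1qtnf3) for d5 against d3 polytrauma, 1.35 and 3.15 (C1qtnf1 and C1qtnf3) for d3 polytrauma against fracture, and 0.89, 0.04 and 4.00 (C1qtnf1, C1qtnf2 and C1qtnf3) for d5 polytrauma against fracture. Signs of ratios under 2-fold turned too, to -0.34 (C1qtnf2) and -0.70 (C1qtnf6) for d5 against d3 fracture, -1.53 (C1qtnf1) and -1.04 (C1qtnf2) for d5 against d3 polytrauma, and 0.73 (C1qtnf2) and 0.08 (C1qtnf6) for d3 polytrauma against fracture. Median-of-ratios size factors gave counts of 1 (higher, d5 against d3 fracture), 2 (higher, d3 polytrauma against d0), 2 (lower, d5 polytrauma against fracture) and, in place of 3, 2 (lower, d3 fracture against d0). Equal weight per cell gave 2 higher for d3 polytrauma against d0 and 3 lower for d5 polytrauma against fracture. A 1.5-fold limit gave 2 higher for d3 polytrauma against d0, 3 higher for d5 against d3 polytrauma, 4 higher for d5 against d3 fracture and 3 lower for d3 polytrauma against fracture. The causes were not tested. Leaving out cells with hematopoietic markers gave 3 lower in place of 4 for d5 polytrauma against fracture. Leaving out shared barcodes or high doublet scores, asking no UMI minimum or 2000 UMIs per cell, and a minimum mean of 1 CPM left all 12 counts as they were, as did leaving out the 141 d5 polytrauma cells with Xist and no Y-linked UMI, an alternative chosen after seeing the data.

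The share of C1qtnf3 UMIs in the tenth of cells with most moved to 59.4% (d3 fracture), 59.7% (d5 fracture) and 56.4% (d5 polytrauma) without a UMI minimum, to 55.6% and 54.5% (d3 and d5 fracture) with at least 2000 UMIs, to 56.6% (d5 polytrauma) without high doublet scores, and to 74.9%, 48.8% and 65.6% after thinning. As deposited, d5 fracture would be at 100% and d3 polytrauma at 55.0%. The share in the d3 fracture cluster with most was 94.0% at resolution 0.3 and 56.5% at resolution 1.0. All 25 shares of cells with a member moved past their intervals without thinning, and also when thinned to 1000 UMIs. No paired analysis was possible because each condition has 1 library. Depth limits C1qtnf7 and the d0 library most: 3 UMIs there are 0.172 CPM.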
